A study of Drosophila melanogaster with 2 samples.

Results

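The heat shock and co-chaperone genes described here are 10 Drosophila melanogaster genes: the small heat shock genes Hsp22, Hsp23, Hsp26 and Hsp27, the Hsp70 family genes Hsp68 and Hsc70-4, the Hsp90 gene Hsp83, the co-chaperone genes DnaJ-1 and stv, and the regulator gene Hsf. They were chosen by name, with earlier results of these data known, and all 10 were found among the 13945 protein-coding genes of the annotation. The data are ChIP-seq peak lists, made with an antibody against GFP from transgenic flies whose homeobox protein CG11617 is fused to GFP at its C terminus. Whole adults of both sexes and unknown age were used, so a signal can come from any tissue, and the labels name no heat or other treatment. The study has 1 group with 2 biological replicates, numbered 2 and 3, and no control sample was analysed here. Library depth cannot be known from the lists, which carry scores and no reads.

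Heat shock proteins are chaperones: they hold unfolded proteins, refold them with the energy of ATP, or pass them on for degradation. On heating, the transcription factor encoded by Hsf forms trimers and binds heat shock elements, which are alternating GAA and TTC units, upstream of the inducible genes. In flies these promoters are also known for a TATA box, for GAGA elements bound by GAGA factor, and for RNA polymerase II held paused just after the start before any heat is given.

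An entry is 1 candidate peak with a summit, the base of highest enrichment, and a signal, the authors' score for the peak. Signals are not scaled between lists, so ranks by signal within a list (1 is the highest) are given beside them. The pooled list and each replicate list hold 30000 candidates, and the authors' optimal set after their filter on the irreproducible discovery rate (IDR, which asks whether peak ranks agree between replicates) holds 5777 entries. Positions are given on dm6 in bp from the nearest annotated transcription start site of the gene, negative upstream, and a summit within 500 bp of a start is called a promoter summit.

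Promoter summits of the IDR set were present at 8 of the 10 genes, against 30.0% of all protein-coding genes. The 8 were Hsp22, Hsp26, Hsp27, Hsp68, Hsc70-4, Hsp83, DnaJ-1 and stv, and the exceptions were Hsp23 and Hsf. When summits anywhere in the gene body were counted too, the same 8 genes were found, against 32.9% of all genes. In the lists of candidates, of which the pooled one includes the IDR entries, the background was higher: 9 of the 10 genes had a pooled candidate, against 65.3% of all genes, 10 had one in replicate 2, against 65.1%, and 9 had one in replicate 3, against 65.3%. The 8 genes carried 11 IDR entries, 3 of them at stv and 2 at Hsp83. Taking each gene's strongest promoter summit, the median IDR signal was 471 over these 8 genes and 309 over all 4178 genes with one, and the 8 values lay between 166 at Hsp68 (rank 5651 of 5777) and 1825 at Hsp83 (rank 46). Because the genes were chosen with earlier results of these data known, these counts and medians are a description of the 10 genes only.

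**Figure D1:**
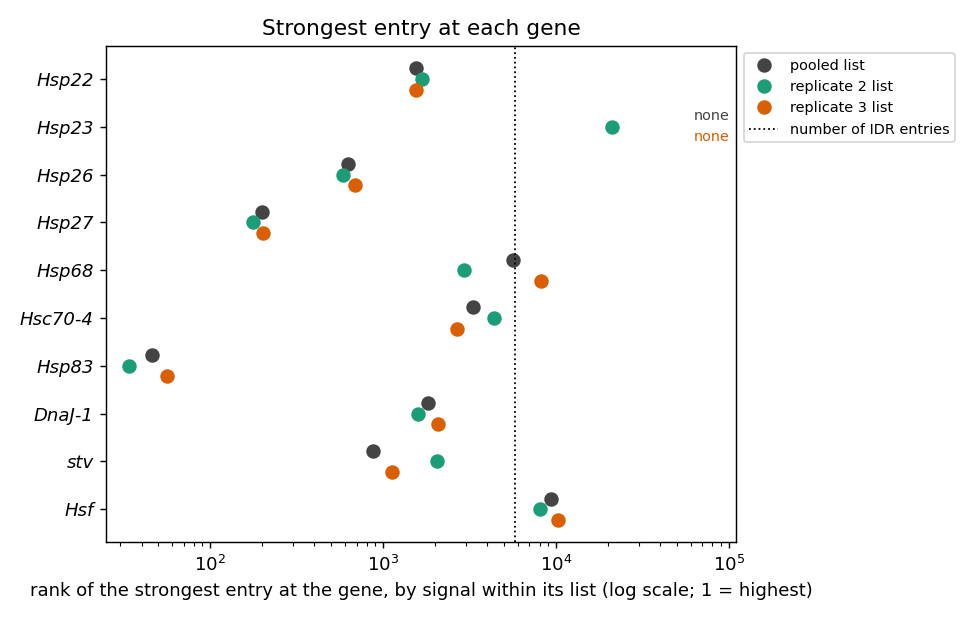
Rank of the strongest entry at each of the 10 genes in the pooled list and in each replicate list, on a log axis on which 1 is the highest signal; the dotted line marks 5777, the number of IDR entries. Hsp83 and Hsp27 lie farthest to the left in all 3 lists, Hsp68 has a replicate on each side of the line, and Hsf and Hsp23 lie to its right.

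The small heat shock proteins form large oligomers that hold unfolding proteins without using ATP. Their genes Hsp22, Hsp23, Hsp26 and Hsp27 stand together on chromosome 3L. Hsp27, whose product is found in the nucleus, had the strongest entry among the 4. It covered chr3L:9383640-9384155 with its summit 166 bp upstream of the start, outside the annotated gene. Its signal was 360 in replicate 2 (rank 176), 737 in replicate 3 (rank 201) and 1094 in the pooled list (rank 198), so its place in the order was close to the same in both replicates. Of the 4178 genes with an IDR promoter summit, 5.07% had a signal at or above that of Hsp27.

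Hsp26, which encodes a cytosolic small heat shock protein, had an entry at chr3L:9377297-9377805 with its summit 95 bp upstream of the outer of 2 annotated starts. Its signal was 214 in replicate 2 (rank 588), 428 in replicate 3 (rank 684) and 651 in the pooled list (rank 622), and 15.5% of the genes with a promoter summit reached it. A further candidate lay upstream in the same region and was not in the IDR set. It had a signal of 120 and rank 1733 at −298 bp in replicate 2, and a signal of 34.2 and rank 19762 at −331 bp in replicate 3. This shoulder stood high in replicate 2 and low in replicate 3, unlike the summit next to the start.

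Hsp22, whose product works in the mitochondrial matrix, had an entry at chr3L:9373391-9373718. Its summit lay 436 bp upstream of the inner of 2 annotated starts and 630 bp downstream of the outer one, inside an annotated 5′ UTR that overlaps the neighbouring gene CG4456. The signal was 122 in replicate 2 (rank 1665), 269 in replicate 3 (rank 1550) and 391 in the pooled list (rank 1540). Of the promoter summits in the 8 genes counted by their strongest entry, this one was the farthest from its start, and it no longer counted with a window of 250 bp.

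Hsp23, another cytosolic member and a neighbour of Hsp27, had no entry in the pooled list, the IDR set or the list of replicate 3. Its only candidate was in replicate 2, with a signal of 17.1, rank 20954 and its summit at position 9381983, in the 5′ UTR. The summit sequences of Hsp27 and Hsp26 (the summit base with 50 bases on each side) and the 150 bases before the start of Hsp23 are printed here to set genes of the cluster that had an IDR summit beside one that had none. All are from dm6 and read in the direction of transcription, Hsp27 from chr3L:9383847-9383947 on the plus strand, Hsp26 from chr3L:9377472-9377572 on the minus strand and Hsp23 from chr3L:9381732-9381881 on the plus strand. Capitals mark heat shock pairs, that is 2 adjoining units in opposite orientation (GAANNTTC or TTCNNGAA).
Hsp27: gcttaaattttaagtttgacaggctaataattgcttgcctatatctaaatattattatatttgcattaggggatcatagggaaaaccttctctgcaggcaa
Hsp26: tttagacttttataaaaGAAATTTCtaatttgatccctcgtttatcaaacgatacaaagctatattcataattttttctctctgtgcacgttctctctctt
Hsp23: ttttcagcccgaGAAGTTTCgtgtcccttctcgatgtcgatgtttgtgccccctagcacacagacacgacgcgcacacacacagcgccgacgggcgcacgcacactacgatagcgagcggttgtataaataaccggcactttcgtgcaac
The Hsp27 window held no heat shock pair, and its signal was the highest of the 4. The Hsp23 promoter, which had no IDR entry, held a TATA box and 2 pairs, 1 of them in the stretch shown. The Hsp27 window and the Hsp23 promoter differ in length, so their counts of pairs are not on the same footing. At Hsp27, bases outside the summit window and the promoter were not searched. Whether heat shock pairs go with the signal was not tested. The Hsp26 window held a pair centred 29.5 bp from the summit and 3 copies of GAGAG, 2 of them overlapping, seen here on the other strand as CTCTC.

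The cluster from Hsp67Bc to Hsp27 spans chr3L:9371511-9385694, which is 14.184 kb, and holds 8 protein-coding genes. It had 3 IDR entries, those of Hsp22, Hsp26 and Hsp27, which is 2.12 per 10 kb, against 0.432 per 10 kb over the chromosome arms 2L, 2R, 3L, 3R, 4 and X. Their summits were 3961 bp and 6375 bp apart, so they are separate entries and not parts of 1 broad region. The densities do not allow for the number of genes, 8 in the span and 13945 over the 133880608 bp of the arms. Counted by gene, 3 of the 8 had an IDR promoter summit, against 30.0% of all protein-coding genes. The pooled list had 5 summits in the span, replicate 2 had 8 and replicate 3 had 6. CG4461, a further small heat shock gene between Hsp22 and Hsp26, had a candidate outside the IDR set whose signal was 12.3 in replicate 2 (rank 28787) and 85.0 in replicate 3 (rank 8200). Hsp67Ba had no promoter summit in any list. Hsp67Bc and CG4456 shared 1 candidate in replicate 2 alone, at rank 17954, which was also within 500 bp of the outer Hsp22 start. The noncoding gene asRNA:CR43481 has its start within 500 bp of the upstream Hsp26 candidate. Outside the cluster, the next IDR summits were 420 bp before its first base, with a signal of 258, and 11631 bp after its last, with a signal of 387.

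**Figure D2:**
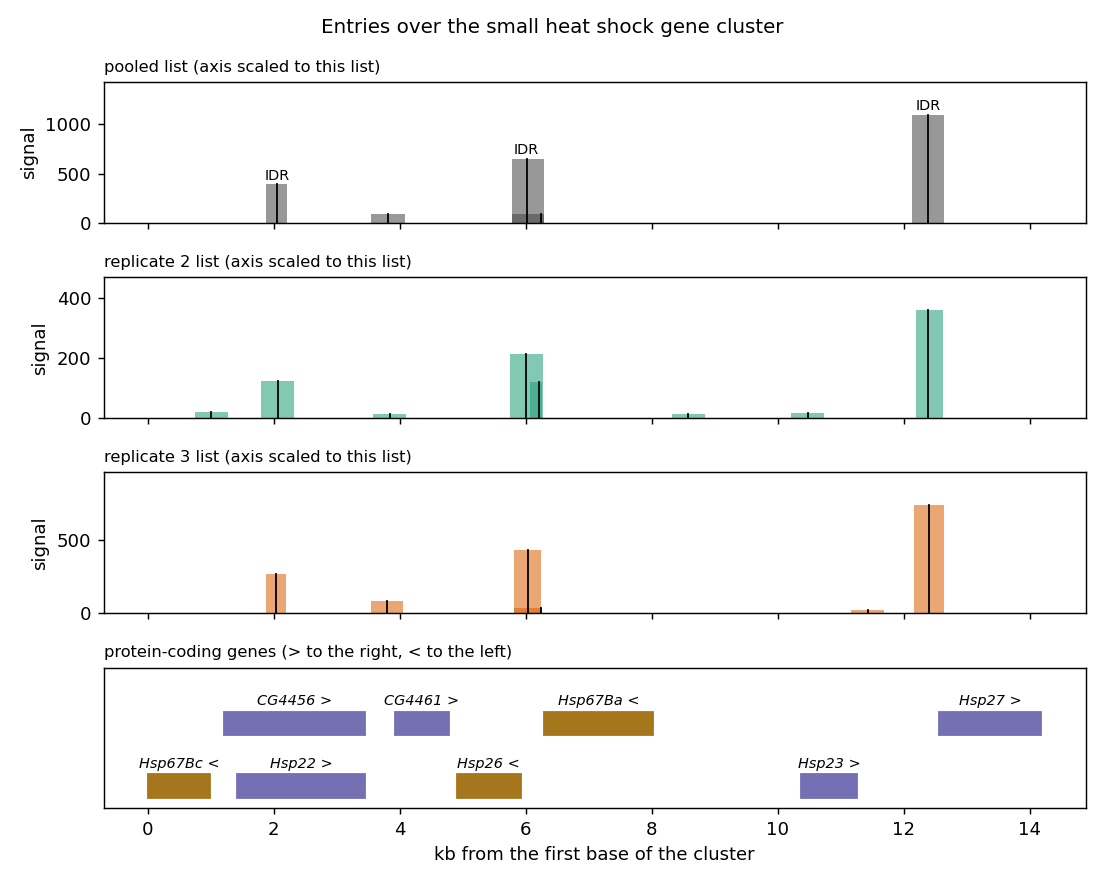
Entries of the pooled list, replicate 2 and replicate 3 over the small heat shock gene cluster, with position in kb from its first base; bars give the extent and signal of an entry, black lines the summit, and the lowest panel the protein-coding genes. The tallest bars in each list stand at Hsp27, Hsp26 and Hsp22, and those marked IDR in the pooled list are these 3.

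Hsp68 and Hsc70-4 encode Hsp70 chaperones, which bind and release unfolded chains in a cycle driven by ATP. Hsp68 is strongly induced by heat, while Hsc70-4 is the main constitutive cytosolic form. Hsp68 had the weakest IDR entry of the 8 genes, at chr3R:24057127-24057662 with its summit 85 bp upstream of its only start. Its signal was 85.7 in replicate 2 (rank 2929), 85.5 in replicate 3 (rank 8127) and 166 in the pooled list (rank 5651), just above the lowest signal of the IDR set, 163. Its entry ranked within the 5777 highest of replicate 2 and not of replicate 3. With replicate 3 alone, taken as its 5777 highest entries, Hsp68 dropped out and 7 of the 10 genes had a promoter summit. A second IDR entry upstream of Hsp68, with its summit at −953 bp, a signal of 192 and rank 4587, lay outside the window and within 500 bp of a start of the neighbouring gene SMC1.

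The 250 bases before the start of Hsp68 (dm6, chr3R:24057311-24057560, minus strand) are shown because this promoter held more heat shock pairs than any other of the 10 genes. Capitals mark the pairs.
Hsp68: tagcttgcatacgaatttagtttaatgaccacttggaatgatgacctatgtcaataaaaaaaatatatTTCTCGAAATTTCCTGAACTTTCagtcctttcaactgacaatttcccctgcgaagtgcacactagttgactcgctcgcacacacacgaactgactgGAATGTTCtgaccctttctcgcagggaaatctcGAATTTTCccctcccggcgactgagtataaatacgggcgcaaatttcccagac
The sequence held 6 pairs. Of these, 4 overlapped in 1 long run from −182 to −160 bp, another lay at −86 to −79 bp and the last at −53 to −46 bp. The IDR summit, which is that of the pooled list at −85 bp, fell within the middle one, 2.5 bp from its centre. The replicate summits, at −95 bp in replicate 2 and −74 bp in replicate 3, fell on either side of that pair. The long run of alternating units lay more than 50 bp from the IDR summit.

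Hsc70-4 has 6 annotated starts within its gene, and its IDR entry, at chr3R:15242630-15242979, had its summit 56 bp downstream of the first of them, in an annotated 5′ UTR. The nearest entries had a signal of 65.9 in replicate 2 (rank 4391) and 191 in replicate 3 (rank 2672), and the pooled signal was 240 (rank 3303). The summits of the replicates were not at the same base: the replicate 2 summit lay at +1 bp of the second start, and the replicate 3 summit lay 89 bp upstream of that start, 90 bp away. The pooled list held 5 promoter summits at Hsc70-4 and the replicates held 5 in replicate 2 and 3 in replicate 3, but only 1 passed the IDR filter. Of the genes with a promoter summit, 66.6% had a signal at or above that of Hsc70-4. An element of 3 alternating units lay between the second start and the third, away from the IDR summit but inside the extent of the IDR entry. A further pooled summit of the same extent, at position 15242945, had a signal of 144 and rank 6746 and was not in the IDR set. That summit falls within the 30 bases that show the element with its flanks (dm6, chr3R:15242942-15242971, plus strand), units in capitals.
Hsc70-4: aggcaaggtTTCTCGAACTTTCgaccccag

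Hsp83 encodes the cytosolic Hsp90 chaperone, which finishes the folding of kinases and steroid receptors and is abundant without heat. It had the strongest entry of the 10 genes. That entry covered chr3L:3192677-3193518, and its summit lay 109 bp upstream of the second of 2 annotated starts and 138 bp downstream of the first, within the 5′ UTR of the longer transcript. The signal was 628 in replicate 2 (rank 34), 1197 in replicate 3 (rank 56) and 1825 in the pooled list (rank 46). Of the 4178 genes with a promoter summit, 40 (0.957%) had a signal at or above this, Hsp83 included. A heat shock pair stood between the summit and the second start, at −68 to −61 bp. It is shown in 30 bases (dm6, chr3L:3193137-3193166, plus strand) with the pair in capitals.
Hsp83: agaagcctctaGAAGTTTCtagagacttcc
A second IDR entry lay inside the gene, in an intron, at chr3L:3193903-3194466 with its summit at +1058 bp. Its signal was 132 in replicate 2 (rank 1454), 425 in replicate 3 (rank 693) and 566 in the pooled list (rank 822). The 50 bases on each side of this intronic summit (dm6, chr3L:3194224-3194324, plus strand) are shown because they had the lowest GC content of the 11 summit windows.
Hsp83 intron: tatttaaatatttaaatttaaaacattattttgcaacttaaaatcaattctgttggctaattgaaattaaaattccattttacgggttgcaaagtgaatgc
No capitals are set, since none of the 8 motifs searched was found in it. Its GC content was 22.8%, against 48.5% in the window around the promoter summit of the same gene. Candidates in the coding exons of Hsp83 did not pass the IDR filter, and the strongest of them in the pooled list had a signal of 87.1 and rank 11698.

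DnaJ-1 and stv encode partners of Hsp70. DnaJ-1 is a J-domain protein of the Hsp40 family, which hands substrates to Hsp70 and stimulates its ATPase. Its IDR entry, at chr3L:5751902-5752382, had its summit 119 bp downstream of the start, in the 5′ UTR. The signal was 125 in replicate 2 (rank 1597), 225 in replicate 3 (rank 2083) and 356 in the pooled list (rank 1801). The replicate summits stood at +29 bp in replicate 2 and +140 bp in replicate 3, a gap of 111 bp, the widest of the 11 entries. A candidate near the 3′ end of the gene did not pass the IDR filter and had a pooled signal of 83.2 (rank 12217).

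The gene stv (starvin) encodes a BAG-domain protein, a nucleotide exchange factor of Hsp70 related to mammalian BAG3. It had 3 IDR entries with promoter summits, more than any other of the 10 genes. The strongest lay upstream of the first start, at −410 bp in chr3L:13476669-13477282. Its signal was 109 in replicate 2 (rank 2031), 326 in replicate 3 (rank 1124) and 551 in the pooled list (rank 866). When the strongest replicate entry overlapping this IDR entry was taken instead, whose summit may lie outside the window, replicate 2 gave a signal of 215 and replicate 3 one of 428. The same region carried another IDR summit at −610 bp, outside the window, with a higher signal of 638 (rank 649). The other entries stood in an intron upstream of the inner starts. The one at −379 bp, in chr3L:13479789-13480334, had a signal of 103 in replicate 2 (rank 2241), 244 in replicate 3 (rank 1833) and 347 in the pooled list (rank 1869). The one at −153 bp, in chr3L:13479978-13480402, had a signal of 41.0 in replicate 2 (rank 8323), 117 in replicate 3 (rank 5512) and 171 in the pooled list (rank 5374), and it was not among the 5777 highest of replicate 2. The 50 bases on each side of the pooled summit at −153 bp (dm6, chr3L:13480241-13480341, plus strand) are shown because a GAGAG lay near it. The centre of the nearest copy was 2.0 bp from that summit. The replicate summits of this entry stood at −74 bp in replicate 2 and −179 bp in replicate 3, 105 bp apart. The distance of 2.0 bp therefore holds for the pooled summit only. Capitals mark the 3 copies of GAGAG, 2 of which overlap.
stv: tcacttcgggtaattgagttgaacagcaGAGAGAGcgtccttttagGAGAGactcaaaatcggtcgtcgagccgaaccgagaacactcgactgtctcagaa

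**Figure D3:**
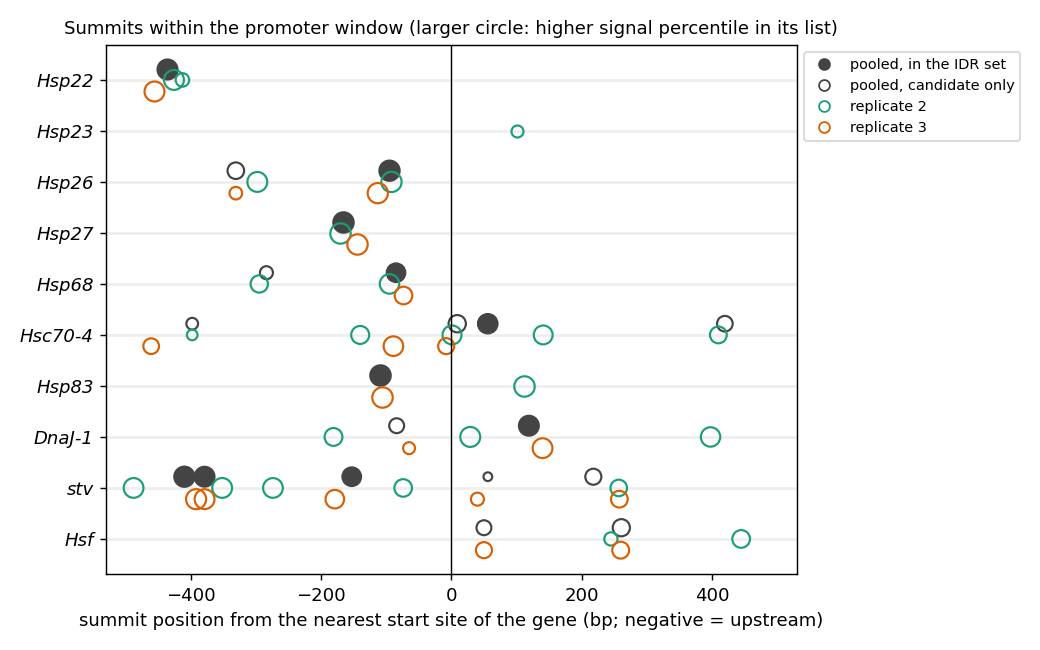
Summits within 500 bp of a start at each of the 10 genes, as the distance in bp from the nearest start of that gene; filled circles are IDR entries, open circles other candidates of the pooled list and of each replicate, and a larger circle has a higher signal percentile in its list. At Hsp27, Hsp26 and Hsp68 the pooled and replicate summits group upstream of the start, at DnaJ-1 and Hsc70-4 they scatter on both sides, and at Hsp83 the replicate 2 summit is drawn from the first start and the others from the second.

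Of the 11 IDR entries, 10 had a promoter summit, 8 summits were upstream and 3 downstream of the nearest start, and 7 lay within 200 bp of it. None of the 11 summits was within 500 bp of a start of another gene, but the Hsp22 summit also lay inside the gene body of CG4456, so position does not give it to Hsp22 alone. In both replicates a candidate overlapped each of the 11 entries, and the replicate summits were a median of 38 bp apart, with a range of 21 to 111 bp. Over the 5760 IDR entries found in both replicates this gap had a median of 32 bp with quartiles of 12.75 and 64 bp. The gaps at Hsp26, Hsp68, Hsp27, Hsp83 (promoter) and Hsp22 were 21 to 30 bp, and those at DnaJ-1, the inner stv entries and Hsc70-4 were 90 to 111 bp.

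The replicate lists are not on 1 scale, so their ratio at each entry was set beside the ratio common to all. Over the 5760 entries the median ratio of replicate 3 to replicate 2 was 2.22, which is 1.15 on the log2 scale, with an SD of 0.57 between entries. Measured from this common ratio, 10 of the 11 heat shock entries lay within 1 SD. Their log2 differences from it went from −0.31 at DnaJ-1 to 0.54 at the Hsp83 intron. The exception was Hsp68 at −1.15, with nearly equal signals in the replicates where the common ratio is 2.22, and 138 entries in all had a ratio as low or lower. In either direction, 5.09% of all entries lay as far from the common ratio as Hsp68, and 1.53% did when each replicate was represented by its highest overlapping entry in place of the nearest. With 2 replicates whose depth is unknown, no test was made of these differences.

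**Figure D4:**
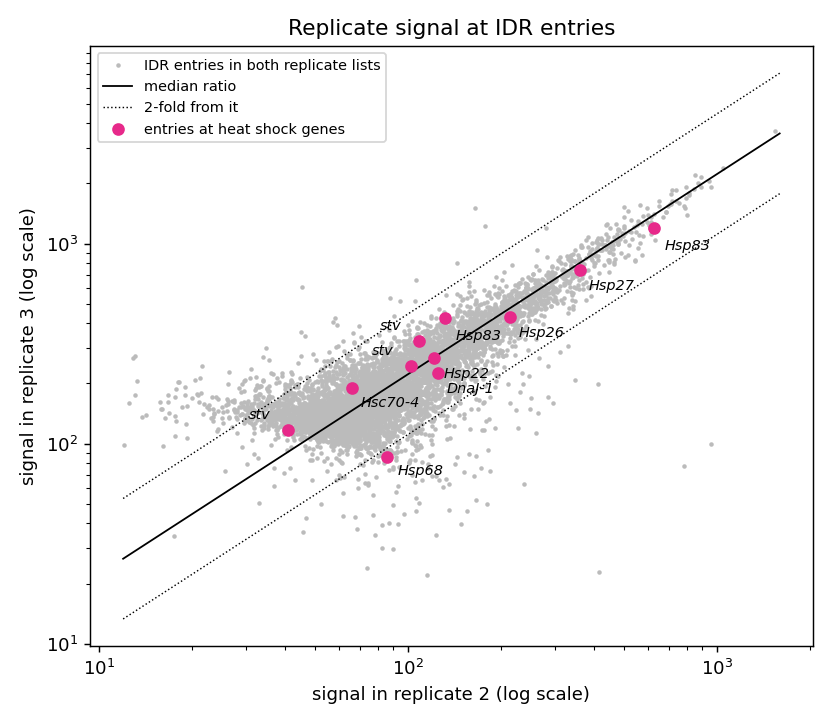
Signal in replicate 3 against signal in replicate 2 for the 5760 IDR entries found in both (grey) and the 11 entries at the heat shock genes (pink), on log axes; the line is the median ratio of 2.22 and the dotted lines are 2-fold from it. The entries follow the line, Hsp83 and Hsp27 at its upper end, and Hsp68 lies below the lower dotted line.

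Promoter sequences, taken as 250 bases before to 50 bases after each of the 19253 distinct annotated starts, were searched on both strands for the elements that these genes are known for. A heat shock pair was found at 7 of the 10 genes, Hsp22, Hsp23, Hsp26, Hsp68, Hsp83, Hsc70-4 and DnaJ-1, and at 10 of the 21 starts of the 10 genes, against 15.8% of all promoters. No pair was found in these windows at Hsp27, stv or Hsf. An element of 3 or more alternating units was found at Hsp68 and Hsc70-4, against 0.421% of all promoters. GAGAG occurred at 5 of the 10 genes, Hsp22, Hsp23, Hsp26, Hsc70-4 and stv, against 33.1% of promoters. TATAAA occurred at 9 of the 10, Hsf being the exception, against 42.2% of promoters. Counting per gene favours genes with several starts, of which Hsc70-4 has 6 and stv 4, so the share over promoters is not on the same footing as a count of genes. Counting per start repeats some sites, since neighbouring starts of Hsp26 and of Hsc70-4 share the same pairs.

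At 1 start each of 8 genes, TATAAA stood at a similar distance. It began 28 bp upstream of the start at Hsp27, Hsp68 and the inner start of both Hsp22 and Hsp26, 27 bp upstream at Hsp23 and the first start of Hsc70-4, 30 bp upstream at the second start of Hsp83, and 31 and 29 bp upstream, in overlapping copies, at the fourth start of stv. Other copies lay elsewhere in the windows of Hsp22, Hsp26, Hsp83 and Hsc70-4. Examples stood at −249 bp of the outer Hsp22 start, at −148 bp of the first Hsp83 start and at −66 bp of the fifth Hsc70-4 start. DnaJ-1 had copies at −176, −137 and +21 bp and none near −28 bp, and its heat shock pair ended on the start base itself. The 2 pairs of Hsp22 stood at −188 to −181 bp and −87 to −80 bp of its inner start, between that start and the IDR summit at −436 bp.

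Within 50 bases of the summits, a heat shock pair was found in 3 of the 11 windows, those of Hsp26, Hsp68 and the Hsp83 promoter, against 4.76% of the windows of all 5777 IDR entries. The genes were chosen by name as heat shock genes, which are known for these pairs, so the shares are a description only. From the pooled summit, the centre of the nearest pair was 2.5 bp away at Hsp68, 29.5 bp at Hsp26 and 44.5 bp at Hsp83. GAGAG was found in 2 windows, Hsp26 and the stv entry at −153 bp, against 12.4%, and TATAAA in 2, Hsp26 and the stv entry at −379 bp, against 19.3%. CG11617 is a homeobox protein, and the homeodomain cores TAATTA and TAACA were both found in 1 window, that of Hsp22, against 9.61% and 24.8% of all windows. The palindrome ACATGT and the DREF site TATCGATA were in none of the 11 windows, against 2.37% and 2.46%. The TATCGATA site was present in the promoters of Hsp83 and DnaJ-1, against 7.98% of promoters, and ACATGT in none of the 10 genes, against 7.03%. TAATTA was in the promoters of Hsp83 and Hsc70-4, against 18.9%, and TAACA in those of 6 genes, against 51.5%. The GC content of the windows went from 22.8% at the Hsp83 intron to 54.5% at Hsp68, with a median of 36.6% and quartiles of 28.7% and 44.6% over all IDR windows.

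**Figure D5:**
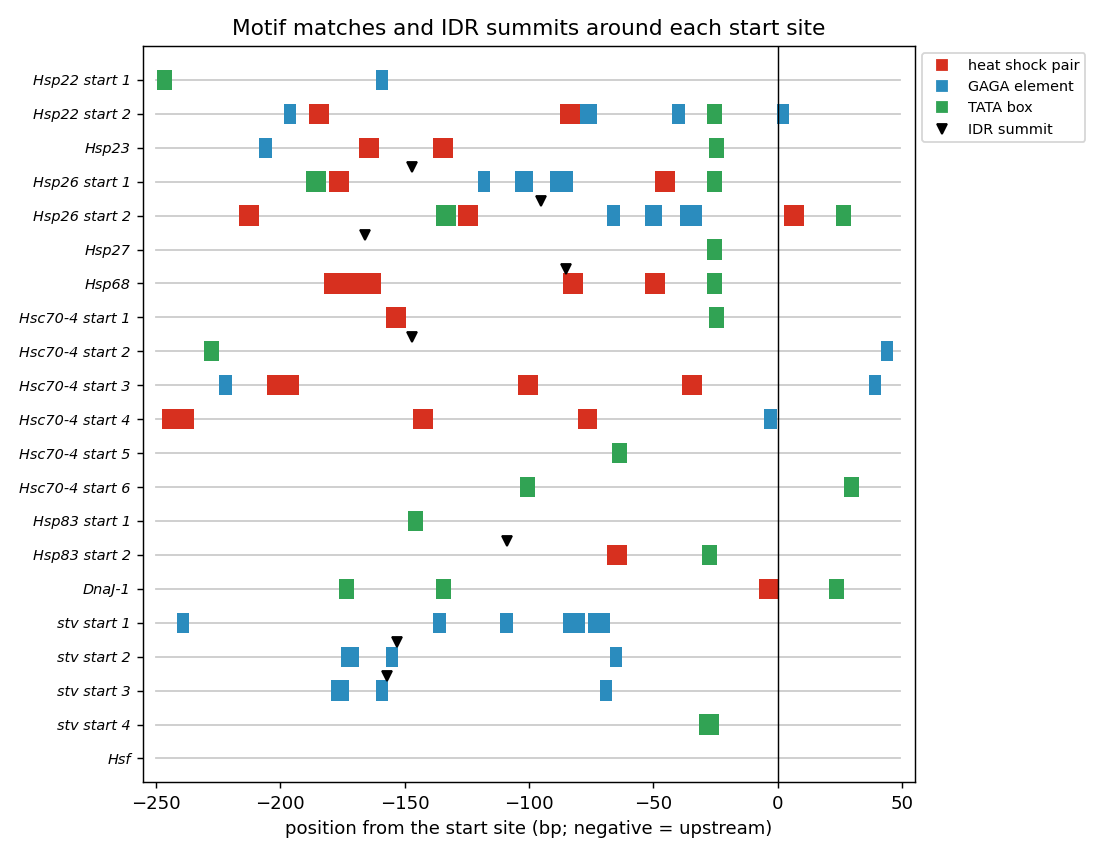
Heat shock pairs (red), GAGA elements (blue) and TATA boxes (green) from 250 bp before to 49 bp after each annotated start of the 10 genes, with IDR summits as black triangles; starts of a gene are numbered along the chromosome. The IDR summit of Hsp68, from the pooled list, sits on a heat shock pair, and that of Hsp27 has no marked element near it. The replicate summits, which are not drawn, lie on either side of the Hsp68 pair. A TATA box stands just before the start at Hsp23, Hsp27, Hsp68 and 1 of the starts of Hsp22, Hsp26, Hsc70-4, Hsp83 and stv.

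The wider chaperone network was taken from a list of 56 genes, of which 52 were matched to the annotation. Promoter summits of the IDR set were found at 21 of the 52. Apart from the 10 genes above, 13 of 42 had one, close to the share of 30.0% over all genes. Their median signal was 262, below the 471 of the 8 heat shock genes and the 309 of all 4178 genes with an IDR promoter summit. Both the 10 genes and the chaperone list were chosen with earlier results of these data known. With 1 group and no test of the differences, these medians are given as a description.

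Over all protein-coding genes, 30.0% had an IDR promoter summit and 61.6% a pooled candidate at the promoter. Among the other small heat shock genes none of 8 had an IDR promoter summit, and 3 had a pooled candidate. These 8 include CG4456, listed under its older symbol Hsp67Bb, which gained an IDR summit with a window of 1000 bp. Among other Hsp70 family genes 3 of 11 had an IDR promoter summit. Hsc70-5, the mitochondrial Hsp70, had the highest signal of the network outside the 10 genes, 1153 in the IDR set (357 in replicate 2 and 772 in replicate 3), and its summit was also within 500 bp of a start of CG8531. Hsc70-3, the Hsp70 of the endoplasmic reticulum, had a signal of 347, and Hsp110, a nucleotide exchange factor of Hsp70, one of 343. The 6 heat-inducible Hsp70 copies had no promoter summit in the pooled list or the IDR set, but reads from near-identical copies cannot be placed on 1 of them with certainty, so their values are uncertain. Both other Hsp90 genes had a summit, Gp93 of the endoplasmic reticulum with a signal of 252 and mitochondrial Trap1 with 247, the last within 500 bp of a start of Bap170 too.

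Of the chaperonin genes, Hsp60A (178) and its partner CG11267 (296) had an IDR promoter summit and Hsp60B, Hsp60C and Hsp60D had none. Against 30.0% of all genes, 6 of the 8 other J-domain genes had one. They were DnaJ-H with a signal of 550, shared with a start of Sirt1, Droj2 and mrj with 262 each, P58IPK with 248, DnaJ-60 with 222, shared with starts of CG42568 and spag, and the synaptic vesicle chaperone gene Csp with 188. Of the other co-chaperones of Hsp70 and Hsp90, none of 8 had an IDR promoter summit, against 30.0% of all genes. A pooled candidate was found at 6 of the 8, against 61.6% of all genes. Among the 9 matched genes of that family stv was the only one with an IDR promoter summit. Differences between families this small were not tested.

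The last of the 10 genes is Hsf itself, on 2R, which encodes the heat shock factor that the elements above are bound by. It had no IDR entry. Its strongest pooled candidate lay in an intron at +261 bp with a signal of 109 (rank 9317), and another lay near the start at +50 bp with a signal of 66.9 (rank 14980). In replicate 2 its strongest promoter summit was at +445 bp with a signal of 42.3 (rank 8021), and in replicate 3 at +260 bp with a signal of 69.3 (rank 10171). These ranks were outside the 5777 highest of every list, while 65.3% of all genes had some pooled candidate at the promoter or in the gene body.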

How the data were processed

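Peak lists from 2 biological replicates of 1 group were used. Entries are in the narrowPeak layout on dm6; per the deposited notes, each candidate list was derived from alignments of the replicates and a control alignment. The signal of each entry is the authors' deposited peak score and carries no error or read count. Neither aligner nor peak caller is given in the sources used here. Lists on dm3 were not used, and no coordinate was converted.

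Summits were placed against protein-coding gene models of Ensembl release 115 (BDGP6.54) and the Release 6 genome sequence with Python 3.11.15, pandas 2.3.3 and Biopython 1.88. Ranks are by signal within a list. Replicate entries were matched to an IDR entry by an overlap of at least 1 bp and the nearest summit. Members, chaperone list and motifs were chosen with earlier results of these data known, and named were the 10 members, the genes of the cluster and chaperone genes with an IDR promoter summit. The list gave no value for 4 symbols, and 2 were matched by an older symbol. No test was made, since 1 group has no comparison. Counting was tested on simulated data. Alternatives changed the window, the peak set, the overlap rule and the replicates.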

Additional observations from a re-analysis of the deposited data

How the results depend on the processing

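The count of 8 of the 10 genes with an IDR promoter summit became 7 with a window of 250 bp (Hsp22 lost), 6 with the 2888 IDR entries of highest signal (Hsc70-4 and Hsp68 lost) and 9 with all pooled candidates (Hsf gained), and it was 7 to 8 with either replicate left out. With gene bodies included the count was also 7 to 8 with a replicate left out. The chaperone count of 21 became 11 with the 2888 strongest entries and 34 with all pooled candidates, and was 20 in both cases with a replicate left out. It was 17 with 250 bp, 23 with 1000 bp (CG4456 and Cdc37 gained) and 22 with entry overlap. The share over all genes, 30.0%, was 25.4% with 250 bp, 32.8% with 1000 bp, 17.9% with the 2888 strongest entries, 61.6% with all pooled candidates, 31.3% with entry overlap, and 28.1% to 30.3% with a replicate left out. When the entry overlapping the IDR entry was taken, the stv signal in replicate 2 was 215 in place of 109, and 14 of 16 strongest signals were equal. The matching of replicate entries by highest signal was chosen after seeing the data. No paired analysis was possible because there is 1 group. The lists give no counts, so precision cannot be given.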
